A study of Mus musculus with 6 samples.

Results

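Olfactory sensory neurons (OSNs) in which neither Nqo1 nor Avp was detected made up 2902 of the 24830 cells kept from 6 single-cell RNA-seq libraries of mouse main olfactory epithelium. A cell was kept with at least 1000 unique molecular identifiers (UMIs, each marking a captured transcript) and 500 genes. It was called a mature OSN with at least 10 UMIs of Omp, more Omp than Gap43, at least 5 summed UMIs of Cnga2, Adcy3 and Gng13, and fewer than 5 of Cyp2g1. The chosen olfactory receptor (OR) was the Olfr gene with the most UMIs, at least 3 and without a tie. Mature OSNs whose chosen OR lay outside Olfr543 to Olfr692, the numbers of class I receptors, were class II OSNs (4515 cells), and those with 0 UMIs of Nqo1 and of Avp are called negative neurons here.

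Swap mice (2 libraries) were labelled Cbx*/* with a Cre driver. After recombination their neuronal lineages express Cbx5, which encodes HP1α, in place of Cbx1, which encodes HP1β, from the Cbx1 promoter. Of the 2 control libraries, replicate 1 was labelled wild type with the Cre driver and replicate 2 Cbx*/* without it, so the controls differed from each other in the Cbx alleles and in the driver. The tetOP2 library (gg8-tTA; tetOP2iresGFP) came from a mouse in which the promoter of Gng8, a gene of immature OSNs, drives the transactivator tTA. The tTA protein in turn drives the receptor P2 (Olfr17) from a tetO transgene. The gg8tTA control library carried gg8-tTA alone. Age was not given in the sources used here. Xist, the transcript of the inactive X chromosome, was at 1225 CPM (UMIs scaled to the same total in every sum of cells) in the negative neurons of swap replicate 1, with Ddx3y at 0, and the other 3 swap and control libraries had Ddx3y at 21.9 to 27.8 CPM, so sex and genotype were not balanced.

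Each mature OSN expresses 1 OR gene from 1 allele, chosen while the other OR clusters are packed in heterochromatin marked by H3K9me3, the mark that HP1 proteins bind. Every OR is used only in a band, or zone, of the epithelium that runs from dorsal to ventral, and zone genes such as axon guidance receptors follow the same axis. Nqo1, a quinone reductase, marks OSNs of the dorsal zone. Avp encodes the vasopressin precursor. The comparisons below ask which zone genes and which ORs the negative neurons carried, and whether these differed between swap and control mice.

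All 6 mature OSN markers (Omp, Cnga2, Ncam2, Adcy3, Gnal, Stoml3) were detected in the negative neurons of every library, with a summed level of 5643 to 12290 CPM and Omp as the most abundant gene. Omp, Cnga2 and Adcy3 were part of the rule, whereas Ncam2 was not, and it was found in 58.0% to 77.7% of the negative neurons of the swap and control libraries. Immature neuron markers summed to 1248 to 2442 CPM, led by Stmn2, and vomeronasal markers to 253 to 369 CPM, nearly all from Gnao1, with Trpc2 at 0 in every library. Markers of other cell types were low but uneven. Sustentacular markers summed to 342 and 206 CPM in swap against 109 and 151.5 CPM in control, led by Cbr2 except in control replicate 1. Bowman gland markers summed to 81.4 and 130.5 against 31.6 and 67.3 CPM, led by Sec14l3. Myeloid markers summed to 64.4 and 1189 against 31.7 and 418 CPM, and 1 cell of swap replicate 2 held 1672 of the 3935 UMIs of S100a9 there and 1 cell of control replicate 2 held 1491 of 2195. Erythroid markers (3.47 and 17.1 against 32.8 and 31.7 CPM), ensheathing markers (24.5 and 22.6 against 75.2 and 30.5 CPM) and basal markers (21.0 and 0.887 against 12.3 and 23.5 CPM) were the remaining lists. The part of these cells or of free RNA in the results below was not tested.

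The negative neurons held a median of 11754 and 13257 UMIs per cell in swap, 12932.5 and 13460 in control, 11424.5 in tetOP2 and 12113 in the gg8tTA control, and their summed UMIs ran from 3860779 to 9402089. Their chosen OR had a median of 69.0 to 107.5 UMIs. A second OR of at least 3 UMIs was present in 5.61% and 6.18% of them in swap and in 4.81% and 6.79% in control. Between 0 and 20 cell barcodes were shared by any 2 libraries, and 1 barcode of the negative neurons was found in 2 libraries, swap replicate 2 and control replicate 1.

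The rule did not isolate an intermediate zone. Nqo1 was at 0 in 12.5% and 21.6% of the swap neurons that chose a class I receptor and in 5.50% and 9.17% of such control neurons. Class I receptors belong to the dorsal zone, and these neurons held a median of 11244.5 to 12344 UMIs in the 4 libraries. Avp without Nqo1 was found in 2.15% and 1.22% of class II OSNs in swap and in 2.75% and 4.12% in control. Of class I neurons, at any Nqo1 count, 9.72% and 2.06% (swap) and 4.59% and 1.83% (control) had an Avp UMI. Of Cyp2g1-rich cells (at least 5 UMIs of Cyp2g1 and fewer than 3 of Omp), 0.151% and 0.625% in swap and 0.354% and 0.655% in control had one. Of 53 class II receptors with at least 8 mature neurons in the 2 control libraries and the gg8tTA control, 35 had Nqo1 in at most 10% of their neurons and 5 in at least 90%, while 4 had Avp in at least 50%. The negative neurons thus hold the class II OSNs without detected Nqo1. At the edge of the rule, 22 and 24 class II OSNs of swap and 25 and 28 of control had exactly 1 Nqo1 UMI, and 5, 5, 10 and 13 had exactly 1 Avp UMI. At the edge of the receptor minimum, 9, 2, 5 and 10 negative neurons had a chosen OR of 3 to 5 UMIs, and 12, 22, 19 and 23 further mature neurons without Nqo1 or Avp reached only 1 or 2.

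The share of negative neurons among class II OSNs was lower in both swap libraries than in both controls, in a design of 2 against 2 libraries in which no permutation test can pass. They were 374 of 604 class II OSNs in swap replicate 1 (61.9%, 95% Clopper-Pearson interval 57.9% to 65.8%) and 502 of 818 in swap replicate 2 (61.4%, 57.9% to 64.7%). In control they were 624 of 910 (68.6%, 65.4% to 71.6%) and 677 of 1043 (64.9%, 61.9% to 67.8%). The intervals cover counting error only. Swap averaged 61.6% ± 0.390 (SD, n = 2) and control 66.7% ± 2.59 (SD, n = 2), a difference of -5.10 percentage points without overlap (two-sided exact permutation test, p = 0.33, the smallest that 2 against 2 libraries allow). After every neuron was thinned to 3000 UMIs the shares were 67.7% and 65.8% against 74.6% and 70.1%. The gg8tTA control library, at 59.2%, lay below all 4, and tetOP2 stood at 67.4%. Thinned, these stood at 72.0% and 76.2%. The Nqo1-positive share was 35.4% and 37.3% in swap and 28.6% and 30.6% in control. As a background, Nqo1 was found in 25.6% and 28.3% of Cyp2g1-rich cells (at least 5 UMIs of Cyp2g1 and fewer than 3 of Omp) in swap and in 16.04% and 27.7% in control, at medians of 14344 and 17544.5 and of 12172.5 and 18390.5 UMIs. This background was lowest in control replicate 1, the library with the highest negative share, and its part in the difference was not tested.

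**Figure D1:**
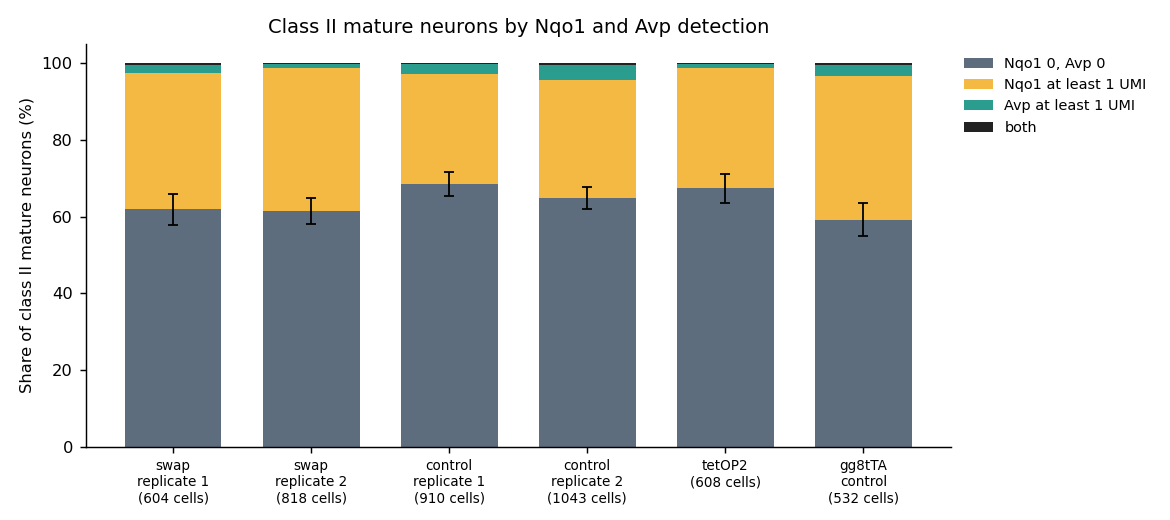
Share of class II mature neurons (%, vertical axis) that were negative (grey), Nqo1-positive (yellow), Avp-positive (green) or positive for both (black) in each of the 6 libraries, with 95% Clopper-Pearson intervals on the negative share. The negative share was 61.9% and 61.4% in swap and 68.6% and 64.9% in control, and Avp-positive neurons were a thin band in every library.

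Zone genes separated the negative neurons from the Nqo1-positive class II OSNs. UMIs were summed per library and class, genes named Olfr and a number and the genes of the rule were left out (pseudogenes with a ps suffix were kept), and edgeR's quasi-likelihood F test was run, with p-values adjusted by Benjamini-Hochberg. Calls needed less than 0.05 in adjusted p and a log2 change of more than 0.58 in size. In control, 105 genes were higher (0.982% of 10696 tested) and 45 lower (0.421%) in negative than in Nqo1-positive neurons. Of the 10 ventrolateral zone genes, 9 were called higher in the negative neurons and none lower, and of the 6 dorsal genes 4 were called lower and none higher. Their median log2 differences, Nqo1-positive minus negative, were -1.997 and 1.183, beside 0.00391 over all genes tested. Both lists were written with earlier results of these data known. Their counts here, and those against the Avp-positive class below, are therefore descriptions and no independent support. The count of calls rested on both controls, with 33 genes called without control replicate 1 and 10 without control replicate 2.

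Ncam2, an adhesion molecule of OSN axons outside the dorsal zone, stood at 132 and 178 CPM in the negative neurons of control and at 119 and 112 CPM in those of swap. In Nqo1-positive neurons it stood at 26.7 and 34.5 CPM in control and at 15.5 and 9.52 CPM in swap. Every negative sum was above every Nqo1-positive sum, and the control difference was 2.31 ± 0.131 (log2, SE, adjusted p = 4.40e-07). Nrp2, a semaphorin receptor that guides axons along the dorsoventral axis of the bulb, was at 119 and 110 against 31.1 and 25.6 CPM in control. It was higher in negative neurons by 2.00 ± 0.135 (log2, SE, adjusted p = 3.17e-06). The nuclear factor I genes, transcription factors of the non-dorsal zones, were higher by 2.51 (Nfib), 1.93 (Nfia) and 1.89 (Nfix) on the log2 scale. Cidea was higher by 2.00, Pdlim1 by 3.06, Ifi27 by 2.45 and Rprm by 1.30, all called, whereas Pcp4l1 was not called (log2 difference 0.68, adjusted p = 0.116).

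Mdga2, a membrane protein of the immunoglobulin family, was nearly absent from Nqo1-positive neurons. Its level was 29.5 and 36.4 CPM in negative control neurons and 0.635 and 1.72 CPM in Nqo1-positive ones, a difference of 4.69 ± 0.360 on the log2 scale (SE, adjusted p = 8.88e-06). In swap it was 14.3 and 13.7 CPM against 1.16 and 0.265 CPM.

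Acsm4, an enzyme used as a dorsal marker, was lower in negative neurons, at 24.9 and 12.1 CPM against 435 and 313 CPM in control (log2 difference -4.40 ± 0.311, SE, adjusted p = 4.52e-06). The swap libraries had 48.4 and 14.8 CPM in negative and 500 and 375 CPM in Nqo1-positive neurons. The other dorsal genes that were called are Socs2, a suppressor of cytokine signalling (-1.52), Cartpt, a neuropeptide precursor (-1.45), and Robo2, a Slit receptor (-0.91). Cd55 and Sema3f were not called (log2 differences of 0.24 and -0.40). Nob1, Papss2, which makes the sulfate donor of the cell, 4932412D23Rik, Hs3st5, which modifies heparan sulfate, the acetate-activating enzyme Acss2 and 2810001G20Rik were the remaining genes of the 8 with the smallest adjusted p, lower by 1.07 to 2.81 on the log2 scale.

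Part of these genes differed again between negative and Avp-positive neurons. The Avp-positive class held 25 and 43 neurons in control and 13 and 10 in swap, so its sums were shallow. Without control replicate 1 the calls against it dropped to 125 genes and without control replicate 2 to 19. Against it, 138 genes were higher (1.29% of 10696) and 184 lower (1.72%) in the negative neurons of control. Of the ventrolateral genes, 4 of 10 were called lower in negative neurons and none higher, and of the dorsal genes 3 of 6 were called higher and none lower. Rprm, a cell cycle inhibitor, was at 60.0 and 37.4 CPM in negative and 413 and 407 CPM in Avp-positive control neurons (log2 difference -3.14 ± 0.242, SE, adjusted p = 1.54e-05). Cidea (-1.35), Nrp2 (-1.02) and Pcp4l1 (-1.58) were lower and Cd55 (3.16), Cartpt (1.27) and Robo2 (1.20) higher on the log2 scale, while Acsm4 and Socs2 were not called (-1.52 and 0.31). Ncam2, Nfia, Nfib and Nfix were not called between these 2 classes, with log2 differences from -0.14 to 0.49.

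Other genes that were lower in negative than in Avp-positive neurons were the transcription factor Etv4 (-3.93), the pyrophosphatase Ppa1, Trp53i11 (-3.34), the secretory granule genes Ptprn (-2.65) and Pcsk1n (-1.87), and the microtubule-associated kinase Dclk1 (-2.47). Higher in negative neurons were the transcription factor Olig2 (4.03 on the log2 scale, at 55.3 and 64.7 against 5.0 and 2.81 CPM in control), the semaphorin co-receptor Plxna1 (2.01), the ephrin Efna5 (1.70), the potassium channel Kcnk10 (2.20), the actin-binding Tmsb4x (1.09), Hist2h2be (1.41), Osbpl1a (1.36) and B830017H08Rik (1.45). Olig2 was at 80.5 CPM in the Avp-positive neurons of the gg8tTA control, close to the 99.2 CPM of its negative neurons, so that difference was not seen in that library.

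**Figure D2:**
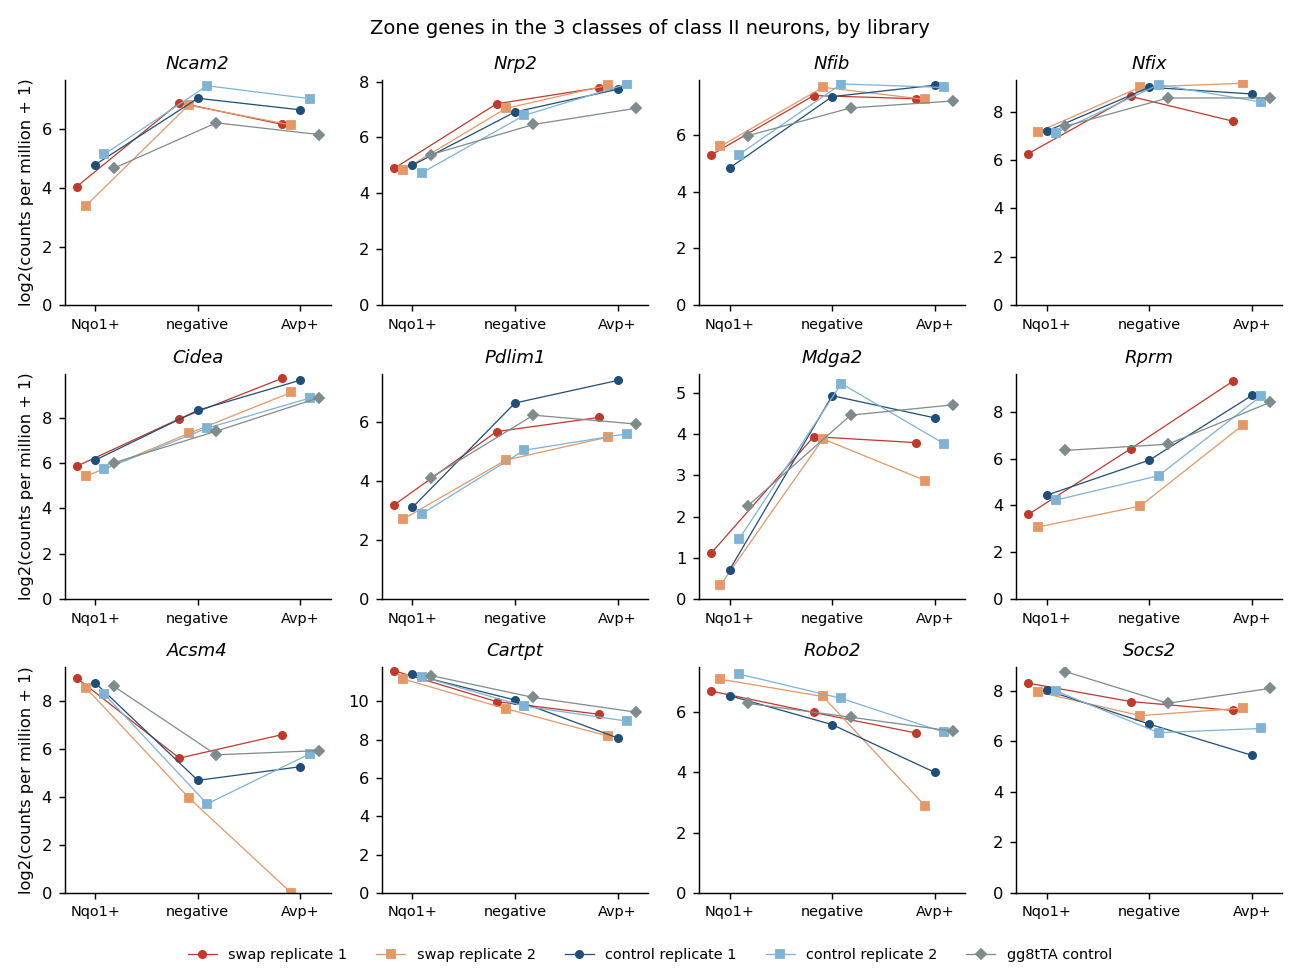
Levels of 12 zone genes as log2(CPM + 1) (vertical axes) in the summed Nqo1-positive, negative and Avp-positive class II neurons of 5 libraries, 1 line per library. Ncam2, Nrp2, Nfib, Nfix, Cidea, Pdlim1 and Mdga2 were higher in negative than in Nqo1-positive neurons in all 5 libraries, whereas Acsm4, Cartpt, Robo2 and Socs2 were lower.

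In all, 42 genes were called in both comparisons, of which 38 had the negative neurons in the middle. Of these, 30 rose from Nqo1-positive through negative to Avp-positive neurons, Cidea, 1500017E21Rik, Nrp2, Ptprn, Olfr1372-ps1, Tmem159, Tmem132a, Etv4, Phospho1 and Tcf15 first among them by adjusted p, and 8 rose the other way (Cartpt, Me1, B830017H08Rik, Slc16a11, Entpd2, Unc13c, Robo2 and Arpp21). Only 3 genes were called higher in negative neurons than in both other classes. Mt2, a metallothionein, stood at 340 and 364 CPM in negative, 194 and 225 CPM in Nqo1-positive and 220 and 240 CPM in Avp-positive control neurons. Plac8 stood at 77.9 and 65.6, 53.0 and 35.7, and 22.5 and 14.0 CPM in the same order. The receptor pseudogene Olfr1191-ps1 had 7.41 and 13.5 CPM in negative neurons and 0 UMIs in the other classes of control. Its calls were thus made against a count of 0 and describe where it was detected. They were lost in 3 alternative settings against the Avp-positive class and in 2 against the Nqo1-positive class. Papss2 was the single gene called lower than in both. Mt2 against the Avp-positive and Plac8 against the Nqo1-positive class each lost the call in 5 of 9 alternative settings.

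Of 17 axon guidance genes tested, 1 was called higher (Nrp2) and 1 lower (Robo2) in negative than in Nqo1-positive neurons, and 3 were higher (Plxna1, Efna5, Robo2) and 4 lower (Nrp1, Nrp2, Plxna3, Epha5) than in Avp-positive neurons. Of 10 genes of glomerular sorting and activity, Kirrel2 was higher (0.85) and Kirrel3 lower (-0.81) than in Nqo1-positive neurons. These 2 homophilic adhesion molecules are known to sort axons into glomeruli. Against Avp-positive neurons Calb2, a calcium-binding protein, was higher (2.21) and Kirrel2 (-0.94) and S100a5 (-1.27) lower. Among 14 signal transduction genes none was called against the Nqo1-positive class and 1 (Pde1c, lower) against the Avp-positive class, and among 11 genes of receptor choice and stress feedback 0 and 1 (Ebf4, higher). No gene of the HP1 and heterochromatin list (12 tested), the retinoic acid list (7 tested) or the sex genes (1 tested) was called in either comparison, with 150 (1.40%) and 322 (3.01%) of 10696 genes called in all.

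The negative and Nqo1-positive neurons also parted in the swap libraries, where 100 genes (0.935%) were called between them, and 163 (1.52%) between negative and Avp-positive neurons. The difference of the swap effects themselves was called for 1 gene of 10696 (0.00935%) against the Nqo1-positive class (Bpifa1, described among the results flagged for a closer look; 180 genes at an unadjusted p under 0.05, 0 by DESeq2). Against the Avp-positive class 0 were called by edgeR, 642 had an unadjusted p under 0.05, and DESeq2 called 0.

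Cbx1 and Cbx5 followed the labels within the negative neurons. Cbx1 was found in 1.34% and 3.78% of negative neurons in swap and in 64.4% and 83.8% in control, at 1.08 and 2.96 against 81.7 and 153 CPM. Its log2 fold change was -5.80 ± 0.582 (SE, adjusted p = 0.0522 by edgeR), so the replaced gene itself stood just outside the threshold here and was called in 8 of 13 alternative settings. Cbx5 was found in 57.0% and 65.3% against 22.8% and 32.9%, at 86.1 and 89.0 against 20.5 and 34.4 CPM (log2 fold change 1.65 ± 0.297, SE, adjusted p = 0.299). Cbx3, the third HP1 gene, stood at 207 and 186 against 245 and 203 CPM. The files do not separate the knocked-in from the endogenous Cbx5. The gg8tTA libraries had Cbx1 at 38.0 (tetOP2) and 32.4 CPM and Cbx5 at 13.9 and 15.3 CPM.

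Across 12091 genes tested in the negative neurons, 1 was called between swap and control (0.00827%), the receptor Olfr1423, and 331 (2.74%) had an unadjusted p under 0.05. With the replicate number as a block, edgeR called 33 of the same 12091 genes, 28 of them receptors, and 785 had an unadjusted p under 0.05. DESeq2 called 120 (0.992%), 95 of them receptors, 75 lower and 20 higher in swap. Control held more negative neurons, and a receptor could pass the low-count filter through its choosing cells in 1 group alone. The split of the receptors therefore says nothing of direction. Leaving out any 1 library raised edgeR's count to between 169 and 234 genes, most of them receptors. At an unadjusted p under 0.05 stood 1 of 10 ventrolateral genes, 1 of 6 dorsal genes, 0 of 17 axon guidance genes, 0 of 10 genes of glomerular sorting and activity, 0 of 17 signal transduction genes, 0 of 11 genes of receptor choice and stress feedback, 2 of 12 HP1 and heterochromatin genes (Cbx1 and Cbx5), 1 of 7 retinoic acid genes and 0 of 1 sex gene, and none of them was called. The median log2 fold change of the ventrolateral list was -0.32 and that of the dorsal list 0.21, beside -0.02 over all genes tested.

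Within the ventrolateral list, Ncam2 was at 119 and 112 CPM in swap and 132 and 178 CPM in control (log2 fold change -0.46 ± 0.217, SE, adjusted p = 1.00), without overlap. Thinned to 3000 UMIs per cell, 26.4% and 24.7% of swap and 32.4% and 37.1% of control negative neurons had an Ncam2 UMI. Pcp4l1 stood at 679 and 565 against 883 and 1148 CPM. Nrp2 stood at 146 and 130 against 119 and 110 CPM. Cidea (248 and 158 against 322 and 186 CPM) and Rprm (84.8 and 14.6 against 60.0 and 37.4 CPM) overlapped between the groups. Of the dorsal genes, Socs2 was at 189 and 128 against 101 and 80.0 CPM without overlap, while Acsm4 (48.4 and 14.8 against 24.9 and 12.1 CPM) and Cartpt (1019 and 790 against 1079 and 863 CPM) overlapped. Swap replicate 1 was the highest of the 4 for Rprm and Acsm4 and swap replicate 2 the lowest for Rprm. In the tetOP2 and gg8tTA control libraries Ncam2 was at 71.1 and 73.3 CPM, below both swap libraries. Pcp4l1 stood there at 592 and 619 CPM, Nrp2 at 81.9 and 87.3 CPM and Socs2 at 103 and 181 CPM. The separations above thus describe the 4 swap and control libraries only.

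Tcfl5, a transcription factor best known from the testis, was the gene other than a receptor with the smallest p. It had 185 and 157 UMIs in swap and 4 and 7 in control, and was found in 37.7% and 25.3% of swap negative neurons against 0.641% and 0.886% of control ones. No cell held more than 3 of these UMIs, so the signal was spread over many neurons, and the 2 gg8tTA libraries stood at the level of the controls (0.427 and 0.518 CPM). The log2 fold change was 5.59 ± 0.468 (SE, adjusted p = 0.0507 by edgeR), and Tcfl5 was called in 8 of 13 alternative settings. It passed the low-count filter through the swap libraries alone, so its fold is a description of where it was detected. 1700030C10Rik was likewise detected in many neurons, 16.3% and 8.37% in swap against 0.321% and 0 of 677 in control, where a count of 0 allows up to 0.443% of cells with a UMI (counting error only, not a limit on cells expressing the gene). Mdga2 was found in 14.4% and 9.76% of swap and 23.9% and 28.2% of control negative neurons (log2 fold change -1.26 ± 0.253, SE, adjusted p = 0.428), and Pcdhb9, a clustered protocadherin, in 0.535% and 0.598% against 4.65% and 5.76%.

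In several of the other leading genes single cells held a large part of the UMIs. Bpifa1, a secreted airway protein, had 6605 and 4282 UMIs in swap against 414 and 364 in control, but 1 cell held 4015 and 1 cell 3996 of them, and it was found in 98.4% of the negative neurons of the gg8tTA control. Prdx6, a peroxiredoxin, had 1647 and 1433 against 357 and 602 UMIs, with 520 and 529 in 1 cell each. Without the highest cell of each library, Bpifa1 stood at 568 and 42.7 against 21.8 and 31.5 CPM and Prdx6 at 246 and 135 against 42.8 and 53.0 CPM, so both stayed higher in both swap libraries. Neurod1, a factor of neuronal precursors, had 1 and 1 UMI in swap and 59 and 108 in control, of which 1 cell held 33 and 54, and stood at 0 and 0 against 3.22 and 5.77 CPM without the highest cells. Cd14 and Wfdc17, genes of myeloid cells, and Ermn, a sustentacular marker, complete the 10 genes chosen by smallest p, and were found in 0.148% to 3.74% of the negative neurons of these 4 libraries. Crabp1, a retinoic acid binding protein, was at 9.11 and 7.98 against 26.2 and 19.8 CPM in 1.87% to 5.29% of the cells.

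**Figure D3:**
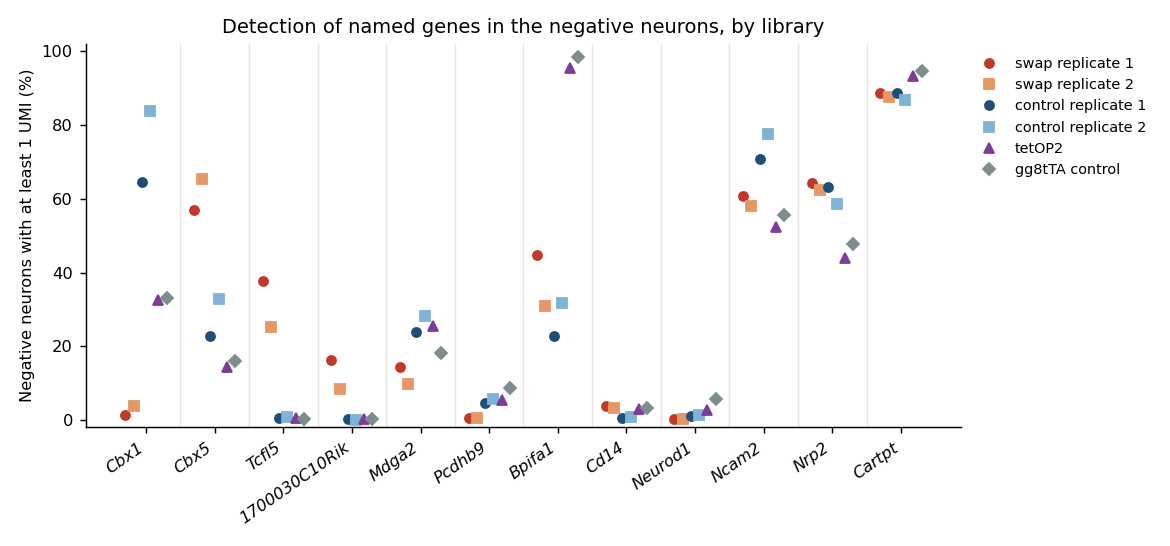
Share of negative neurons with at least 1 UMI (%, vertical axis) of 12 named genes, with 1 point per library. Tcfl5 and 1700030C10Rik were detected in many neurons of both swap libraries and in few of the other 4, Cbx1 was found in at most 3.78% of them in swap, and Bpifa1 reached almost every negative neuron of the tetOP2 and gg8tTA control libraries.

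The number of different ORs chosen by negative neurons was lower in both swap libraries. Swap libraries had 220 and 256 different chosen ORs and control libraries 324 and 352. In equal draws of 374 negative neurons, averaged over 1000 draws, these were 220 and 217 in swap and 239 and 250 in control (means 218 ± 2.39 and 244 ± 8.16, SD, n = 2 each), without overlap (two-sided exact permutation test, p = 0.33, the smallest possible). Over the 4 libraries 573 ORs were chosen, 483 in control and 355 in swap, with 265 in both, from more neurons in control.

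Single ORs were chosen by few cells each. In control the ORs of most negative neurons were Olfr1348 (9 and 10 neurons against 1 and 0 in swap), Olfr1359 (11 and 4 against 1 and 0), Olfr239, Olfr31 (7 and 5 against 0 and 0), Olfr55, Olfr1247 (7 and 4 against 1 and 0), Olfr531, Olfr728, Olfr15 and Olfr1196 (5 and 5 against 0 and 0). In swap they were Olfr1440 (6 and 10 against 3 and 6 in control), Olfr1437 (4 and 8 against 2 and 3), Olfr220 (5 and 6 against 2 and 3), Olfr821 (4 and 7 against 0 and 2), Olfr201, Olfr449 (6 and 4 against 0 and 2), Olfr827, Olfr1271, Olfr1258 and Olfr13 (3 and 5 against 0 and 0). Tested as numbers of cells over 41 ORs, only Olfr1348 and Olfr1359, both lower in swap, passed an adjusted p of 0.05 by edgeR. Both reached the minimum of 10 negative neurons for this test through the control libraries, so the 2 calls describe which ORs these neurons chose. At least 5 negative neurons, from both control libraries, chose 20 ORs that no negative neuron of swap chose, and 4 ORs (Olfr780, Olfr76, Olfr13, Olfr434) were chosen the same way in swap and by no negative neuron of control. Olfr780 was also chosen by 1 mature control neuron, which had Nqo1. In the gg8tTA control, 1 negative neuron chose Olfr780 and 1 chose Olfr76. The control libraries held more neurons, so these 2 counts are not on an equal footing.

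By summed UMIs 1 receptor was called. Olfr1423 (chr19:12035808-12036740, mm10) had 2 and 3 UMIs in swap against 550 and 596 in control, from 5 control neurons that chose it (log2 fold change -7.20 ± 0.339, SE, adjusted p = 0.0360 by edgeR). It passed the low-count filter through the control libraries alone, so its fold is a description of which receptors these neurons chose. The next 9 receptors by p were not called, each at an adjusted p of 0.0507 by edgeR. In alternative settings Olfr127 and Olfr780 were called in 8 of 13 and the other 7 in 9 of 13. Olfr1213 (0 and 0 against 726 and 850 UMIs), Olfr1507 (0 and 0 against 398 and 430), Olfr127 (0 and 0 against 227 and 342) and Olfr727 (1 and 3 against 225 and 405) had fewer UMIs in both swap libraries, and Olfr24 (533 and 832 against 2 and 0), Olfr101 (287 and 585 against 0 and 0), Olfr209 (267 and 549 against 0 and 0), Olfr13 (146 and 285 against 0 and 0) and Olfr780 (128 and 245 against 0 and 0) had more. Of Olfr24, 1 and 2 mature control neurons also chose it, all with Nqo1 and so outside the negative neurons. Each of these came from 2 to 8 neurons. Over all 360 receptor genes tested, 106 (29.4%) had both swap libraries below both controls and 68 (18.9%) above, beside 8.55% and 11.8% of all genes tested. Control held more negative neurons, and a receptor could pass the low-count filter through its choosing cells in 1 group alone, so these shares are a description and say nothing of direction.

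**Figure D4:**
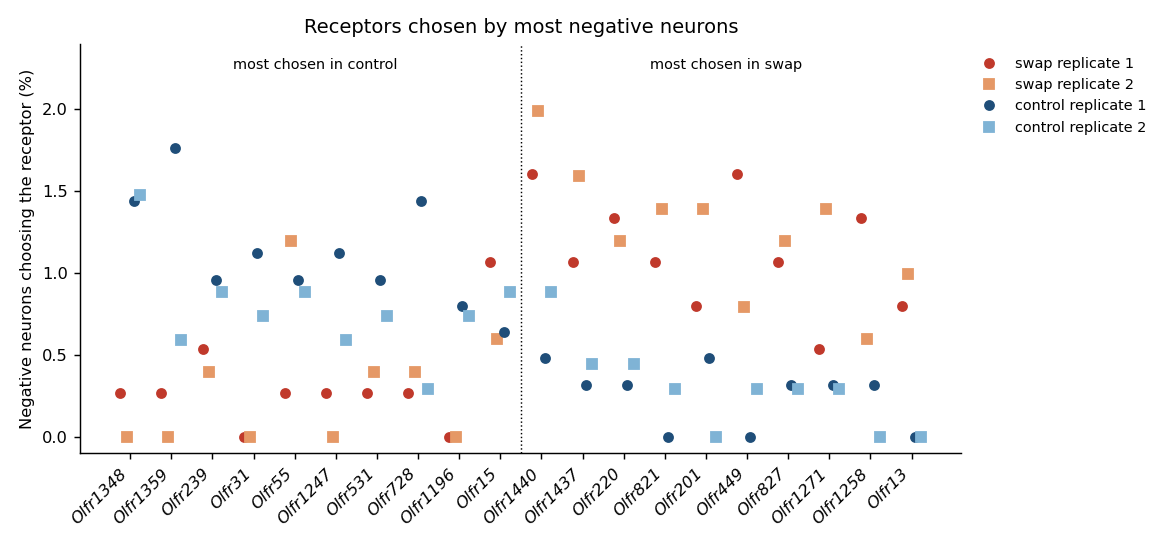
Share of negative neurons choosing each of 20 ORs (%, vertical axis), the 10 most chosen over the control libraries on the left and the 10 most chosen over the swap libraries on the right, with 1 point per library. Olfr31 and Olfr1196 were at 0 in both swap libraries and Olfr13 at 0 in both control libraries, and no OR exceeded 1.99% of a library.

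Upstream sequence is shown for the 2 ORs with the most negative and the 2 with the most positive difference, swap minus control, in their share of negative neurons, among ORs whose RefSeq start lay within 100 bases of the 5′ end of the gene in GENCODE, since for most ORs the RefSeq window sits at the coding start instead. There were 147 such windows. Each line gives 250 bases before the start, from RefSeq (GRCm38.p6, minus strand), with matches to TAATNA, the core of homeodomain sites, and to CCCNNGGG, the core of Ebf sites, on either strand in capitals.
Olfr536 (chr7:140507319-140507568): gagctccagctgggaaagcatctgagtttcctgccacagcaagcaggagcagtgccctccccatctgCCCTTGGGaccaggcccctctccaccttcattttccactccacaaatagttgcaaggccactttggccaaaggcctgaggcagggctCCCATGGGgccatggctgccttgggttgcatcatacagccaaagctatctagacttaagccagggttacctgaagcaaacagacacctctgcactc
Olfr1508 (chr14:52467462-52467711): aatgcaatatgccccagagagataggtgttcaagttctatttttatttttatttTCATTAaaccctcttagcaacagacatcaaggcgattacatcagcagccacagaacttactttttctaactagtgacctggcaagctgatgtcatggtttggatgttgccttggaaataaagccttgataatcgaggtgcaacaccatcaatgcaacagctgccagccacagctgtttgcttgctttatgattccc
Olfr722 (chr14:49901942-49902191): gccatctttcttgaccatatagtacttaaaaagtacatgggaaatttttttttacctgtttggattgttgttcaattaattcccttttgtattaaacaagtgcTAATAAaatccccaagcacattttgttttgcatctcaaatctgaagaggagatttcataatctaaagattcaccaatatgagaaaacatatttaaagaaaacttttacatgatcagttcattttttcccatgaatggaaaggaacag
Olfr1437 (chr19:12325067-12325316): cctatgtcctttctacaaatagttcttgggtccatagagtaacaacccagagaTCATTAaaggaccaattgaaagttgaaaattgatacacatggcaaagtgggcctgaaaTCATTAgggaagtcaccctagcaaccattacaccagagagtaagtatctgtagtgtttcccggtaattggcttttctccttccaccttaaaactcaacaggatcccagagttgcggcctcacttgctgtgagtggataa

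Olfr536 was chosen by 1 and 0 negative neurons in swap against 4 and 5 in control, Olfr1508 by 0 and 0 against 5 and 1, Olfr722 by 7 and 1 against 2 and 0, and Olfr1437 by 4 and 8 against 2 and 3. Olfr722 and Olfr1508 lie in the same cluster on chromosome 14 and differed in opposite directions, with overlapping libraries for Olfr722. TAATNA was found in 68.0% of the 147 receptor windows and in 24.3% of the windows of all 32851 RefSeq entries, and CCCNNGGG in 10.9% and 11.8%. A match is a description of these letters and not a binding site.

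By position, 2 of the 26 OR clusters with at least 20 negative neurons (7.69%) differed in the share of neurons that chose them. With the replicate number as a block 0 were called (adjusted p = 0.117 by edgeR for both). Clusters were runs of ORs on a chromosome with gaps below 1 Mb, placed by RefSeq coordinates of GRCm38.p6. The cluster of 59 ORs at chr10:128989914-130211128 was chosen by 28 and 65 negative neurons in swap (7.49% and 12.9%) and by 24 and 31 in control (3.85% and 4.58%), a log2 fold change of 1.29 ± 0.271 (SE, adjusted p = 0.00292 by edgeR). Both swap libraries lay above the controls. Without swap replicate 2 the log2 fold change was 0.76 (adjusted p = 0.230 by edgeR), and without control replicate 1 or 2 the adjusted p was 0.137 and 0.169. The gg8tTA control had 7.94% of its negative neurons there, as high as swap replicate 1. Of the cluster's 41 chosen ORs, 26 had a higher and 15 a lower share in swap. Olfr821 and Olfr827 of the list above lie in it. Among Nqo1-positive neurons 12.1% and 13.8% in swap and 8.85% and 6.90% in control chose the same cluster.

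A cluster of 220 ORs at chr2:85330967-90282573 fell from 20.8% and 20.8% of negative neurons in control to 16.04% and 14.7% in swap (log2 fold change -0.46 ± 0.0717, SE, adjusted p = 0.0288 by edgeR). There, 74 of 115 chosen ORs had a lower and 41 a higher share, and 37 and 36 different ORs were chosen in swap against 63 and 74 in control, from unequal numbers of neurons. Nqo1-positive neurons chose it in 11.2% and 14.8% of cells in swap and in 24.2% and 23.8% in control. The gg8tTA control had 16.8% of its negative neurons there. Leaving out any 1 library ended the call of this cluster (adjusted p from 0.0833 to 0.251 by edgeR).

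The 4 next clusters by p did not pass. They were chr6:41771353-43236575, with Olfr13 and Olfr449 (4.81% and 3.98% in swap against 1.92% and 1.33%, adjusted p = 0.0510), chr7:6439902-6570919, with Olfr1348 (1.07% and 1.39% against 3.04% and 3.40%, adjusted p = 0.0974), chr1:172956768-174449602, with Olfr220 (2.67% and 1.99% against 0.962% and 0.886%, adjusted p = 0.0974), and chr16:19285794-19625101 (1.07% and 0.598% against 1.76% and 2.07%, adjusted p = 0.148), all by edgeR. Within whole chromosomes, chromosomes 2 and 7 were called lower (log2 fold changes of -0.65 and -0.71) and chromosome 10 higher (1.11) among 14 tested.

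**Figure D5:**
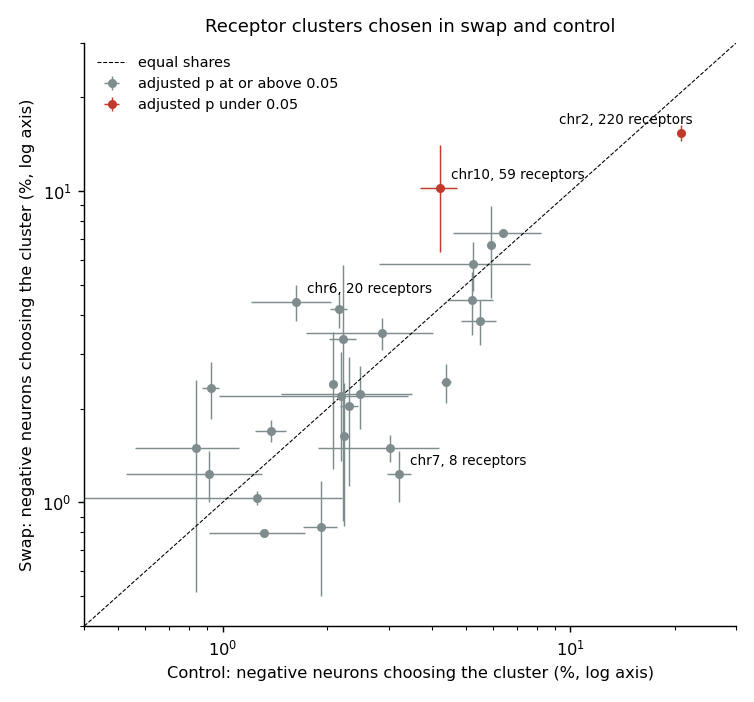
Mean share of negative neurons choosing each of 26 OR clusters in control (horizontal) and swap (vertical), both in % on log axes, with bars of 1 SD over 2 libraries. The cluster of 59 ORs on chromosome 10 lay above and the cluster of 220 ORs on chromosome 2 below the line of equal shares, and these 2 had an adjusted p under 0.05.

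The share of negative neurons choosing ORs that other libraries paired with Nqo1 was higher in both swap libraries than in both controls. Each OR was typed from libraries other than the one scored, namely the control library of the other replicate number and the gg8tTA control, where at least 3 mature neurons chose it and at least 50% of them had Nqo1 (Nqo1-type) or Avp (Avp-type). Between 40.6% and 47.4% of negative neurons chose an OR that could be typed. Nqo1-type ORs were chosen by 26 of 173 (15.03%) and 24 of 204 (11.8%) of these in swap and by 17 of 296 (5.74%) and 15 of 292 (5.14%) in control. ORs of neither type took 81.5% and 88.2% against 92.6% and 93.5% (means 84.9% ± 4.76 and 93.0% ± 0.654, SD, n = 2, difference -8.16 percentage points, without overlap, two-sided exact permutation test, p = 0.33, the smallest possible). The share of class I neurons with Nqo1 at 0 was also higher in swap, as given above, and its part in this difference was not tested. Avp-type ORs were chosen by 6 and 0 negative neurons in swap and by 5 and 4 in control.

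Among themselves, negative neurons differed in zone genes with the OR they chose. The 20 ORs named above as most chosen in control or swap had 8 to 25 negative neurons each over these 4 libraries. Cartpt ran from 63.6 CPM (Olfr220) to 2293 CPM (Olfr827) over these ORs, with Olfr1348 at 147 CPM. Rprm was at or below 15.8 CPM except in neurons choosing Olfr449 (367 CPM), Olfr15 (231 CPM) and Olfr220 (152 CPM), where Pcp4l1 was at 1836, 741 and 1562 CPM. Olfr1348 neurons had Pcp4l1 at 1233 CPM with Rprm at 0. Cidea was at 0 CPM in neurons choosing Olfr1271, Olfr821 and Olfr827 and at 559.5 CPM in those choosing Olfr449. Acsm4 was highest for Olfr827 (58.5 CPM) and Olfr821 (51.8 CPM), the ORs of the chromosome 10 cluster, which also had the lowest Ncam2 (46.8 and 13.0 CPM). Nfix, by contrast, stayed between 287 and 696 CPM. These levels come from few cells pooled over libraries and are given without a test. The ORs drew their neurons unequally from swap and control (Olfr821 from 4 and 7 against 0 and 2, Olfr1348 from 1 and 0 against 9 and 10). Acsm4 and Rprm were highest in swap replicate 1, with Rprm at 84.8 CPM there and 14.6 CPM in swap replicate 2. Olfr449 took 6 of its neurons from swap replicate 1. For Acsm4 and Rprm the part of the library was not tested. Olfr827 and Olfr220, at the ends of the Cartpt range, were chosen in all 4 libraries. Cartpt summed over all negative neurons ran from 790 to 1079 CPM between these libraries, and the part of the library in its range over ORs was not tested.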

How the data were processed

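The authors deposited whole-number UMI counts per gene and cell barcode for 6 libraries of dissociated main olfactory epithelium, made with 10x Genomics chemistry and Cell Ranger with intronic reads counted; the labels name mm10. The series' design text speaks of sorted cells and gg8-tTA in all mice, whereas the methods describe unsorted tissue. A part of the genotype labels is not reported here. Total counts ran from 32005196 to 63277934 UMIs per library. Members and gene lists were chosen with earlier results of these data known. Nothing in the labels says that libraries came from separate litters or days, so p-values measure only the spread between these libraries.

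UMIs were summed per library (and class) and tested with edgeR 4.0.16 (quasi-likelihood, TMM, filterByExpr, Benjamini-Hochberg) in R 4.3.3, over 12091 genes for swap against control and 10696 for the classes, with library as a block in the class fit. Calls needed an adjusted p under 0.05 and a log2 change beyond 0.58, and clusters the adjusted p alone. Single values per library were compared with exact two-sided permutation tests (scipy 1.17.1). Doublets were predicted with Scrublet in Scanpy 1.11.5 and removed only as an alternative. The fits were tested on simulated data. Named genes are those of the fixed lists, the 10 receptors and 10 other genes of smallest p for swap against control with 1 sign in both same-numbered pairs, the 8 genes a direction of smallest adjusted p for each class, genes called beyond or between both classes (up to 10), the 10 ORs most chosen in each genotype and 6 clusters. Genes discussed beyond these were chosen after their values were seen. Alternatives were DESeq2 1.42.0, RLE factors, receptor genes outside the scaling, no low-count filter, a receptor minimum of 10 UMIs, up to 1 UMI of Nqo1 and Avp, doublets or second receptors removed, thinning to 3000 UMIs, a replicate block and leaving out each library.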

Additional observations from a re-analysis of the deposited data

Results flagged for a closer look

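The swap effect on Bpifa1 differed between classes, by -3.78 ± 0.349 (log2, SE, Nqo1-positive minus negative neurons, adjusted p = 0.000586 by edgeR's quasi-likelihood test), in a test of the difference itself. It had 6605 and 4282 UMIs in the negative neurons of swap, of which 1 cell held 4015 and 1 cell 3996, and DESeq2 did not call it. The log2 difference, Nqo1-positive minus negative, was -0.48 in control and -4.26 in swap. Without the highest cell of each library, Bpifa1 stayed higher in both swap libraries, as given above, with a small margin in swap replicate 2. It was also found in almost every negative neuron of the gg8tTA control. The part of the 2 highest swap cells in the class difference was not tested.

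Olfr17, the receptor of the transgene, was chosen by 253 of 410 negative neurons of the tetOP2 library, which the comparisons of the report do not use (61.7%, 95% Clopper-Pearson interval 56.8% to 66.4%), against 1 of 315 (0.317%) in the gg8tTA control. This is a signal in data outside the main comparison and has 1 library a group.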

How the results depend on the processing

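No result reversed. The negative share, the number of different ORs in equal draws and the share choosing ORs of neither type kept their direction in all alternatives run. For genes between swap and control (1 called), DESeq2 called 120, no low-count filter 78, removing predicted doublets 42, the replicate block 33, removing neurons with a second receptor 29, and leaving out 1 library 169 to 234. For receptor genes (1 called) these were 95, 73, 39, 28, 27 and 151 to 188, and numbers of cells per receptor gave 2. The counts therefore depend on these settings, and the cause was not tested. Against Nqo1-positive neurons (150), no filter gave 286, doublet removal 267 and leave-one-out 10 to 209. Against Avp-positive neurons (322), no filter gave 525, thinning 107 and leave-one-out 19 to 360. Genes whose swap effect differed from that in Nqo1-positive neurons (1) were 0 with DESeq2, 44 with no filter, 8 without doublets, 8 after thinning and 0 to 22 with leave-one-out. For the Avp-positive class (0) they were 36 with no filter, 1 after thinning and 0 to 4 with leave-one-out. Of OR clusters (2), the replicate block called 0 and leave-one-out 0 to 1. Where 1 library was left out, the lone library of its group was assumed to vary like the others.

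Deviations of same-numbered libraries correlated at 0.486 over 11731 genes. The labels do not say what a shared number marks, and 2 pairs cannot show it. The main fit of swap against control held no replicate block. With the block, 785 genes had an unadjusted p under 0.05 by edgeR, against 331 without it. Most named ORs were chosen by few neurons, which limits the precision of their shares.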

Other observations

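Within the tetOP2 library, zone genes of negative neurons that chose Olfr17 stood beside those of the other 157 negative neurons as follows, with 1 library and no test. Ncam2 was at 67.4 and 76.5 CPM, Nrp2 at 78.8 and 86.5 CPM, Cidea at 197 and 199 CPM, and Cartpt at 1071 and 1084 CPM. Rprm was at 10.0 and 93.4 CPM, Cd55 at 10.0 and 67.5 CPM, Pcp4l1 at 344 and 958 CPM, and Mdga2 at 40.5 and 20.6 CPM. Among all 377 mature neurons that chose Olfr17 there, 121 (32.1%) had Nqo1 and 4 had Avp.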
